A study of Auxenochlorella pyrenoidosa with 12 samples.

Results

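A set of 200 contigs of the green alga Chlorella pyrenoidosa had a mean level near the control on day 0 of exposure to potassium peroxymonosulfate (PMS) and stood at a small remnant of it in every library from day 3 to day 12. For 32 of them that day 0 mean lies between a library well below and a library well above the control. The members were chosen by their own measured values among the 30814 contigs of the table. The rule took the mean log2(FPKM + 1) of each group, required the day 0 mean to lie within 1 of the control mean, left out the 100 contigs with the highest control mean, and ranked the 28332 eligible contigs by a single value. This rule value is the lower of the control and day 0 means minus the highest of the day 3, 6, 9 and 12 means, and the 200 contigs with the largest values were taken. The drop between day 0 and day 3 is therefore given here as a description with no test. The late days were tested among themselves, since the rule does not fix their order. It does cap each late mean, and with it the size of late differences, so the counts of calls are a description and nothing about the members is read from how they compare with other contigs. Every difference on the log2 scale below is of log2(FPKM + 1), which understates changes at low levels.

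The treated groups received 8.49 mg/L PMS, 0.5 of the median effective concentration, and their sampling days were 0, 3, 6, 9 and 12. The untreated control received no PMS. Each of these 6 groups had 2 libraries of total RNA from whole cells of the same species, 12 in all. The control title can be read as dose 0 or day 0, and no untreated culture of a later day was analysed here, so exposure and culture age cannot be told apart in any late value. The sources used here do not give strain or light regime. They also do not say whether a group's libraries are 2 cultures or 1. The p-values here measure the spread between these libraries, which may be technical. Lower PMS doses named in the design were not analysed here.

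PMS is a strong oxidant used in water treatment, and in water it can give rise to sulfate and hydroxyl radicals. Chlorella is a unicellular alga that divides by forming several daughter cells inside the mother cell wall, and much of its transcription follows the light cycle and the cell cycle. A transcript pool is set by synthesis and decay together, and an RNA level does not separate them. FPKM counts sequenced fragments relative to contig length and library size and so is a share of each library, and fewer cells carrying a transcript and less of it per cell cannot be told apart either. The contigs come from an assembly without a genome and the table pairs none of them with a gene name, so members are described by level, rank and course.

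Total FPKM ranged from 487140 to 603105 per library, and depth in reads is unknown. The day 3 libraries differed from each other in more than 1 respect. Of the 17653 contigs that entered the tests below, 1309 were over 2-fold higher in day 3 library 1 and 321 were over 2-fold lower. These counts are on the log2(FPKM + 1) scale. The 8281 contigs under 0.01 FPKM in all control and day 0 libraries made up 1.42% of FPKM in day 3 library 1 and 0.140% in library 2. None of the 200 members is among those contigs. No pair of libraries of a group shared an identical value above 0.

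The members ranged widely in level before the drop. Their median was 25.2 and 27.0 FPKM in the day 0 libraries, against 23.8 and 24.4 FPKM in those of the control. The single highest member reached 544 FPKM in a control library and the lowest stood at 3.95 FPKM. By control mean they ranked from 159 to 7885 in the whole table, with a median rank of 2593.5. The rule leaves out the first 100. Day 0 lay above the control for 116 members and below it for 84, with a median difference of 0.06 on the log2 scale. The differences ran from -0.9995 to 0.89, in a range that the rule limits on both sides.

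**Figure D1:**
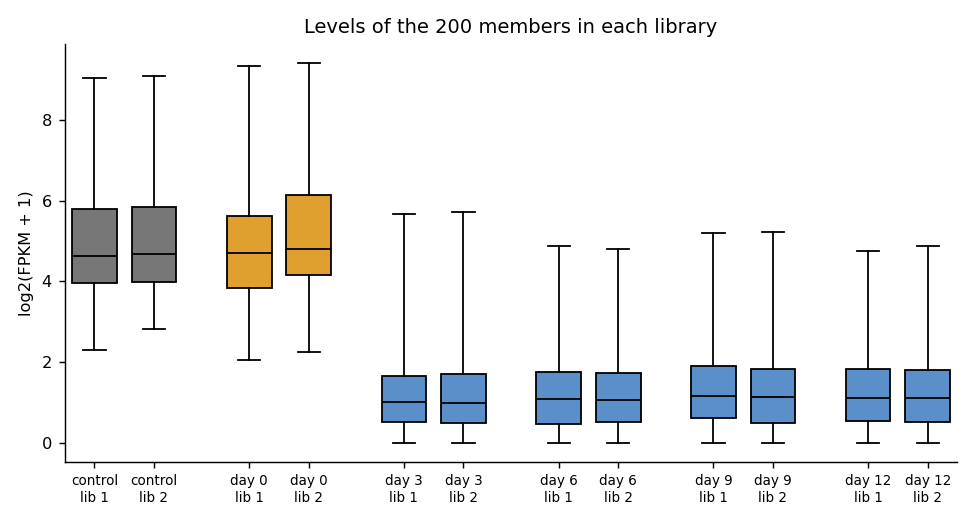
Levels of the 200 members, as log2(FPKM + 1), in each of the 12 libraries (boxes: quartiles with the median line; whiskers: lowest and highest member; grey, control; orange, day 0; blue, days 3 to 12). The medians lie at 23.8 to 27.0 FPKM in the 4 control and day 0 libraries and at 0.992 to 1.25 FPKM in the 8 later ones.

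From day 3 on the members sat near the bottom of the scale in all 8 later libraries. Their median was 1.03 and 0.992 FPKM on day 3, 1.11 and 1.10 FPKM on day 6, 1.25 and 1.20 FPKM on day 9, and 1.17 FPKM in each day 12 library. Over all 17653 tested contigs (mean of at least 1 FPKM, which all 200 members passed through their early level) the median was 2.80 and 2.35 FPKM for the day 3 libraries and 4.54 and 4.34 FPKM for those of day 12, against 4.86 and 4.67 FPKM in the control. As a share of the library, the 200 members together made up 0.0879% and 0.0945% of FPKM on day 3, against 1.89% and 1.87% in the control. On day 12 they made up 0.0876% and 0.0910%.

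Set against its own control mean, the median member kept 3.71% on day 3. It kept 4.49% on day 6, then 5.19% (day 9) and 4.98% (day 12). After a rescaling of each library by its median ratio to the others the day 3 value was 5.85%, and the later days gave 5.81%, 6.45% and 6.34%, so the low point on day 3 depended on the scaling. The quartiles on day 12 were 1.79% and 8.33%. The highest late mean of a member lay under 1% of its control for 6 members, under 5% for 60 and under 10% for 147, and 16.2% was the highest of all. In every member each of the 8 later libraries lay below each of the 4 early ones, and the lowest early library exceeded the highest late one by 3.36-fold at the least and by 9.27-fold in the median. These figures follow from how the members were picked and describe its outcome.

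Few members vanished from the table. In all 8 later libraries 174 members were at or above 0.01 FPKM, 26 were below it in at least 1, and a single member was listed at 0 in all 8. That member, at rank 136, had 5.39 and 5.76 FPKM on day 0, against 8.58 and 6.19 FPKM in untreated cells. The remaining level was under 1 FPKM in all 8 later libraries for 44 members and at least 1 FPKM in all 8 for 61.

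The largest rule value, 6.51, belonged to TRINITY_DN1633_c0_g2_i1_4. It had 158 and 154 FPKM on day 0, against 224 and 219 FPKM in untreated cells. Day 3 had 0.241 and 0.502 FPKM, day 6 had 0.472 and 0.106, day 9 had 1.00 and 0.484 and day 12 had 0.758 and 0.698 FPKM. All later libraries are low and none comes near the early ones, and the group mean on day 12, 0.728 ± 0.0425 FPKM (SD, n = 2), is 0.329% of the control mean, 221 ± 3.25 FPKM (SD, n = 2). No late contrast of this contig was called, with a day 12 minus day 3 difference of 0.34 on the log2 scale (SE 0.18, limma adjusted p = 0.142).

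The second, TRINITY_DN1050_c0_g2_i2_4, had a rule value of 6.00. It stood at 62.3 and 81.1 FPKM on day 0, against 81.9 and 84.1 FPKM in the control, then at 0.0595 and 0.200 FPKM on day 3, at 0.00242 and 0.0757 on day 6 and at 0.0253 and 0.0618 FPKM on day 9. Both day 12 libraries listed it at practically 0, under 0.01 FPKM. The names place it in a read cluster of the assembler with another contig, called a separate gene there, which kept 19.0 FPKM in the control mean, 22.5 FPKM on day 3 and 21.9 FPKM on day 12. Neighbouring contigs of a cluster can share fragments, and the sources used here do not say how shared ones were assigned.

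The most abundant member had its own lowest level on day 12. It ranks 3 in the list, with 640 and 680 FPKM on day 0, against 521 and 544 FPKM in untreated cells. Day 3 had 10.3 and 7.88 FPKM, day 6 had 6.46 and 5.92, day 9 had 6.00 and 3.47 and day 12 had 2.75 and 2.48 FPKM. Each day 12 library lies below each earlier one. Its day 12 level fell below day 6 by 0.99 on the log2 scale (limma adjusted p = 0.00731), a call lost without day 6 library 1 (limma adjusted p = 0.0552). It fell below day 3 by 1.47 (SE 0.19, limma adjusted p = 0.000216), a call kept with any single library left out.

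**Figure D2:**
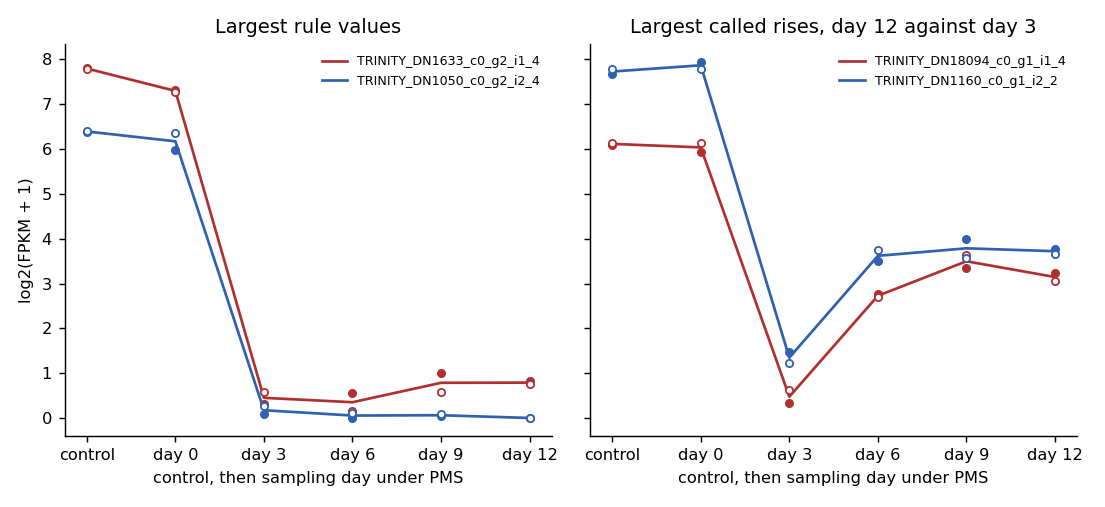
Course of the 2 contigs with the largest rule values (left) and of the 2 with the largest called rise on day 12 against day 3 (right), as log2(FPKM + 1), from the control through days 0 to 12 (lines: group means; filled and open points: library 1 and library 2). The left pair stays near 0 from day 3 on, while the right pair stands higher from day 6 on and stays far below its control.

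Rule values thinned out quickly below these leaders. The median value was 2.90, 20 members reached at least 4 and 113 lay under 3. At rank 200, the last inside, the value was 2.51, with mean levels of 18.0 FPKM in the control, 21.9 on day 0, 0.599 on day 3 and 1.89 FPKM on day 12. At rank 201, the first outside, it was also 2.51, with 19.3 FPKM in the control, 19.9 on day 0, 0.461 on day 3 and 2.02 FPKM on day 12. The list has no natural edge there. Without the conditions on day 0 and on abundance, 8 of the 200 largest values would belong to other contigs, 6 of them with day 0 at least 1 from the control and 2 among the 100 most abundant.

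The log scale with 1 FPKM added decides which contigs can enter. A contig cannot have a rule value above its own early log2(FPKM + 1), and the lowest member stood at 5.57 FPKM in its lower early mean. Counted by proportion instead, 109 contigs with early means of at least 1 FPKM kept at most 5% of the lower one on every late day. Of these 57 are members and 52 are not, and 46 of the 52 were too low in the early groups to reach the lowest member's value. With 0.1 FPKM added in place of 1, the same rule chose 118 of the 200 members again.

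**Figure D3:**
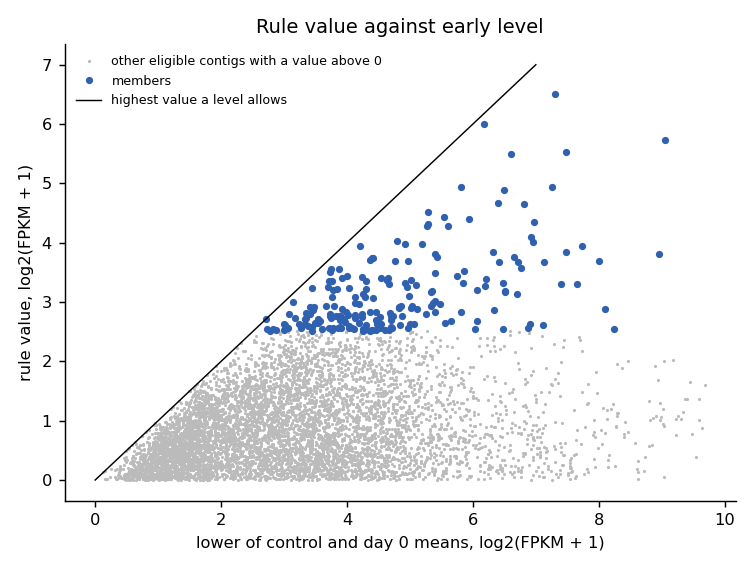
Rule value against the lower of the control and day 0 means, both on the log2(FPKM + 1) scale, for the 200 members (blue) and all other eligible contigs with a value above 0 (grey); the line is the highest value that a level allows. Members begin at a rule value of 2.51 and thus at no early level below it.

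The day 0 libraries differed from each other in a set of members. On the log2(FPKM + 1) scale 33 members were over 2-fold apart on day 0, 32 of them lower in library 1, against 0 in the control. In FPKM with nothing added, 35 members were over 2-fold apart on day 0 and 1 in the control. Day 3 had 42 such members, day 6 had 24, day 9 had 27 and day 12 had 24, at the low levels of those days and in both directions, such as 23 higher and 19 lower in day 3 library 1. Among the 7343 contigs with early means at least as high as the lowest member (members included), 54 were over 2-fold lower in day 0 library 1, 0.735%, and 52 over 2-fold higher, 0.708%. Of those 54, 32 are members, 7 belong to the next 200 contigs by the rule, and 5 miss the condition on day 0. The rule used only the mean of both day 0 libraries, so the difference between them is a measure it did not use, though this pattern was singled out after its values were seen.

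The 32 members form a band of their own. Library 1 minus library 2 on day 0, on the log2(FPKM + 1) scale, ran from -2.59 to -1.37, while the other 168 members lay between -0.95 and 1.07 with a median of 0.07. In FPKM, library 2 exceeded library 1 by 2.84-fold to 6.56-fold, with a median of 4.35-fold. Library 1 lay below both control libraries in all 32, and library 2 also lay above both control libraries in 31. The rule held the day 0 mean near the control, so libraries this far apart were favoured to lie on both sides of it. The median of the 32 was 10.1 and 50.8 FPKM in the day 0 libraries, against 29.6 and 29.5 FPKM in the control libraries. For example, the member at rank 8 had 36.0 and 218 FPKM on day 0, against 124 and 112 FPKM in the control. The member at rank 37 had 33.9 and 209 FPKM on day 0, against 112 and 88.1 FPKM in the control.

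**Figure D4:**
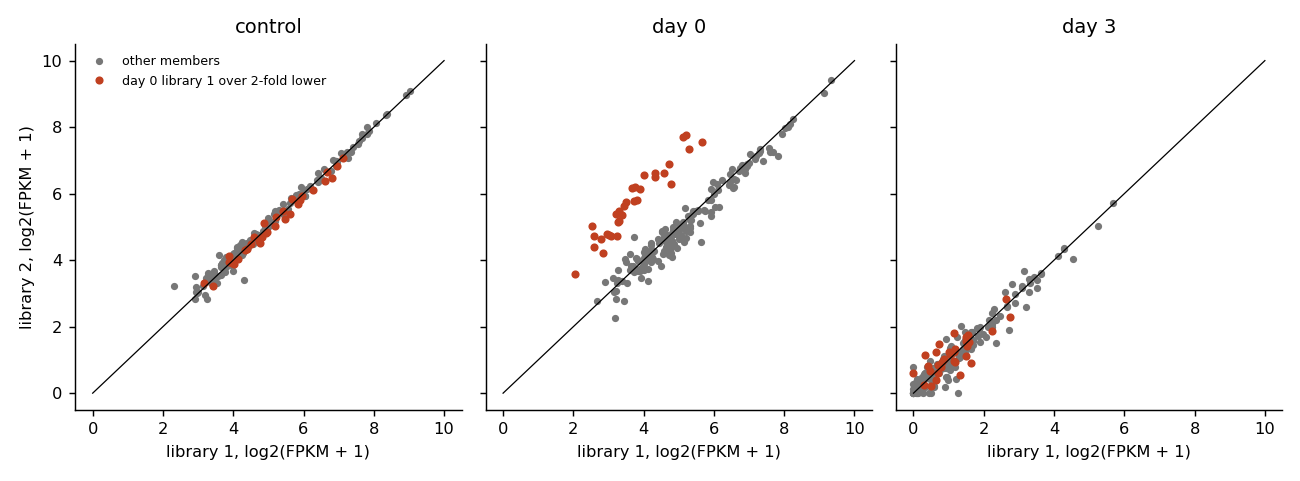
Library 2 against library 1 for the 200 members in the control, on day 0 and on day 3, both axes as log2(FPKM + 1), with the line of equal values (red: the 32 members over 2-fold lower in day 0 library 1; grey: the other 168). On day 0 the red points form a band above the line, and in the control and on day 3 they lie with the others.

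With the 32 summed, the day 0 libraries held 472 and 2200 FPKM, against 1420 and 1330 FPKM in the control libraries. The other 168 held 9634 and 8972 FPKM on day 0, against 8822 and 9109 FPKM in the control. On day 3 the median of the 32 was 1.14 and 1.17 FPKM, with 9 members over 2-fold apart in FPKM, 6 lower and 3 higher in library 1. On day 6 it was 0.452 and 0.506 FPKM, with 2 members that far apart. The near-control day 0 mean of the 32 is thus the middle of a high and a low library. Without day 0 library 1 the rule chose 29 of the 32 again, and without day 0 library 2 it chose 1. Whether the libraries differed in sampling time, culture state or handling was not tested, and the labels give no batch. By the number appended to their names, 6 of the 32 carry 1, 16 carry 2, 1 carries 3 and 9 carry 4, while the other members divide into 39, 39, 53 and 37. The sources used here do not say what that number stands for.

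The late days were compared with each other to see which members differed among them. A moderated F test over days 3, 6, 9 and 12 (limma, Benjamini-Hochberg adjusted p under 0.05, all 12 libraries in the fit) called 90 of the 200 members, 45.0%, against 59.7% of the 17653 tested contigs. Among the next 200 contigs by the rule it called 87. All 200 members passed the filter on low values through their early level, and no contigs of equal late level were set beside them, so the lower share is not read as a trait of the members.

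On day 6 against day 3 the members divided into both directions. Called higher were 46 members, 23.0%, against 31.2% of all tested contigs, and called lower were 34, 17.0%, against 14.4% (limma, adjusted p under 0.05). The median difference was 0.01 on the log2 scale for members and 0.23 for all tested contigs, with 97 members at an unadjusted p under 0.05. Rescaled libraries, which move the median of all tested contigs by -0.18, gave 34 members higher and 42 lower. A fit of the day 3 and day 6 libraries alone, not rescaled, gave 32 higher and 38 lower. Which direction held more members thus depended on the scaling and on the libraries in the fit.

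The 34 members called lower on day 6 were picked by a day 3 level above that of day 6. In the day 3 libraries they ranged from 0.395 to 51.5 FPKM. Their median was 0.979 and 0.869 FPKM on day 6, against 5.44 and 5.04 FPKM on day 3, after 86.2 and 92.5 FPKM in the control. The widest difference, at rank 63, belonged to a member with 0.136 and 0.0759 FPKM on day 6, against 16.1 and 16.4 FPKM on day 3. Its level fell by 3.96 on the log2(FPKM + 1) scale (SE 0.13, limma adjusted p = 8.53e-08). With 168 and 169 FPKM in the control, it kept a remnant on day 3 that was largely gone on day 6. At rank 182 another member had 5.32 and 5.30 FPKM on day 6, against 50.2 and 51.5 FPKM on day 3, a log2 difference of -3.04 (SE 0.08, limma adjusted p = 2.88e-08). On day 12 this second member had 6.41 and 6.26 FPKM. Of the 34, 12 were called higher again on day 12 than on day 6, none was called lower, and 22 were not called. Over all tested contigs 17.0% were called higher and 11.9% lower on that contrast. Both contrasts use the day 6 mean, so members picked by a low day 6 level are favoured to be called higher afterwards. These counts are thus not read as a course of the members.

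The 46 members called higher on day 6 had the opposite course. Their median was 2.52 and 2.73 FPKM on day 6, against 0.869 and 0.874 FPKM on day 3, and it was 2.31 and 2.23 FPKM on day 12. The control had 29.2 and 29.7 FPKM, and the rule itself keeps any late level far below that. Of the 46, 4 were called higher and 2 lower on day 12 than on day 6, and 40 were not called. Here the shared day 6 mean favours calls of lower, since the 46 were picked by a high day 6 level.

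The remaining 120 members were not called between days 3 and 6. Their median was 0.695 and 0.661 FPKM on day 6, against 0.741 and 0.734 FPKM on day 3. Of these, 111 were not called on day 12 against day 6 either, while 6 were called higher and 3 lower. These 111 are the members without a called step after the drop in either contrast. The 32 members with unequal day 0 libraries are all among them. Their median SE was 0.53 per contrast, against 0.17 for the other members. A fit of the 8 late libraries alone, given below, called 7 of these 32 lower on day 6 than on day 3. A missing call is thus not read as a steady level.

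**Figure D5:**
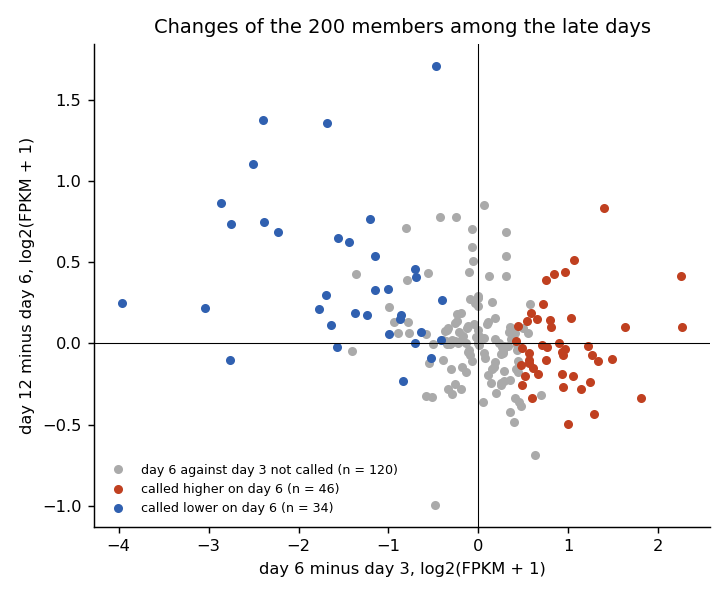
Difference of day 12 and day 6 against the difference of day 6 and day 3 for the 200 members, both on the log2(FPKM + 1) scale (red, called higher on day 6 than on day 3; blue, called lower; grey, not called; limma, adjusted p under 0.05). Both axes use the day 6 mean, so a tilt of the cloud is partly built in; 46 members lie in red and 34 in blue.

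Between days 6 and 12 fewer steps were called. Called higher on day 12 were 22, 11.0%, against 17.0% of all tested contigs, and called lower were 5, 2.5%, against 11.9% (limma, adjusted p under 0.05). The medians of the difference were 0.02 for members and 0.03 for all tested contigs. These counts rest on single libraries: without day 6 library 1 they were 10 and 0, without day 6 library 2 they were 12 and 2, without day 12 library 1 they were 10 and 1, and without day 12 library 2 they were 13 and 1. Without control library 1 or control library 2 the lower count was 1 in each case.

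Over the whole late span, day 12 against day 3, 57 members were called higher, 28.5%, against 38.1% of all tested contigs, and 31 lower, 15.5%, against 17.9%. The median difference was 0.06 for members and 0.34 for all tested contigs. Rescaled libraries gave 40 higher and 41 lower, with the median of all tested contigs moved by -0.19. Without day 12 library 2 the higher count was 34.

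The largest called rise was that of TRINITY_DN18094_c0_g1_i1_4. It had 59.9 and 69.8 FPKM on day 0, against 67.7 and 68.9 FPKM in untreated cells. Day 3 had 0.257 and 0.536 FPKM, day 6 had 5.76 and 5.48, day 9 had 9.19 and 11.5 and day 12 had 8.39 and 7.32 FPKM. Both day 12 libraries lie above both day 3 libraries and below every early one. The rise from day 3 was 2.67 on the log2(FPKM + 1) scale (SE 0.14, limma adjusted p = 1.10e-06), and 4.06 with 0.1 FPKM added in place of 1. The day 12 mean was 11.5% of the control. At rank 186 this contig is among the last admitted, since its day 9 level is the highest late mean that the rule counts.

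TRINITY_DN1160_c0_g1_i2_2 followed, at rank 24. Its day 0 level was 246 and 220 FPKM, against 204 and 219 FPKM in untreated cells. Day 3 had 1.78 and 1.33 FPKM, day 6 had 10.3 and 12.4, day 9 had 14.9 and 11.0 and day 12 had 12.7 and 11.7 FPKM. Each library from day 6 on exceeds both of day 3. The rise on day 12 against day 3 was 2.37 (SE 0.16, limma adjusted p = 3.45e-06). Day 12 against day 6 was not called, with a difference of 0.10 (limma adjusted p = 0.654). Its day 12 mean was 5.77% of the control.

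The wide day 0 spread of the 32 members entered every late test through the estimate of spread that all 6 groups share. In the 12-library fit none of the 32 was called in any late contrast or by the F test, with a median SE of 0.53 per contrast against 0.17 for the other members. A fit restricted to the 8 late libraries, added after this was seen, gave the 32 a median SE of 0.19 and the others 0.18. In it 7 of the 32 were called lower on day 6 than on day 3, 21.9%, against 12.8% of all tested contigs, and 12 were called lower on day 12 than on day 3, 37.5%, against 16.4%. None of the 32 was called higher in any of these contrasts in that fit. Against day 3, 28.1% of all tested contigs were called higher on day 6 and 35.5% on day 12. The F test of that fit called 7 of the 32, 21.9%, against 51.8% of all tested contigs. The other 168 had 38 called higher (22.6%) and 32 lower (19.0%) on day 6 against day 3. On day 12 against day 3 they had 43 higher (25.6%) and 26 lower (15.5%).

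Over all 200 members that 8-library fit called 38 higher and 39 lower on day 6 against day 3, which is 19.0% and 19.5%, against 28.1% and 12.8% of all tested contigs. On day 12 against day 3 it called 43 higher and 38 lower, 21.5% and 19.0%, against 35.5% and 16.4%. On day 12 against day 6 it called 11 higher and 1 lower, 5.5% and 0.5%, against 11.7% and 7.65%. The F test then called 75 members, 37.5%, against 51.8%. The median log2 difference of the 32 on day 6 against day 3 was -0.35, below 0 in 28 of 32, and that of the other 168 was 0.16. The difference between both sets was not tested, since the 32 were picked from these values.

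Which late day was the highest varied between members. Day 3 was the highest late mean in 77 members, day 6 in 34, day 9 in 61 and day 12 in 28. As shares these are 38.5%, 17.0%, 30.5% and 14.0%, beside 25.3%, 23.5%, 19.5% and 31.6% of all tested contigs. The lowest late mean was on day 3 in 94, on day 6 in 61, on day 9 in 15 and on day 12 in 30. Their shares are 47.0%, 30.5%, 7.5% and 15.0%, beside 50.7%, 17.6%, 13.0% and 18.7% of all tested contigs. Day 9 exceeded both day 6 and day 12 in 88 members, 44.0%, and in 23.2% of all tested contigs. These orders include differences far smaller than the spread between libraries and are given as a description. Tied means count for the earliest of the tied days, so the member at rank 136, at 0 on all late days, counts for day 3 both as highest and as lowest.

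The contig names gave little that members had in common. Of the appended numbers, 1 was carried by 45 members, 2 by 55, 3 by 54 and 4 by 46. As shares these are 22.5%, 27.5%, 27.0% and 23.0%. They are close to the 22.4%, 29.2%, 26.3% and 22.1% of the 7343 contigs with early means at least as high as the lowest member. A read cluster with at least 1 other contig held 20 members, 10.0%, against 13.2% of tested contigs and 11.85% of those 7343. These clusters hold 23 other contigs, of which 10 had a rule value above 0 and 10 had a highest late mean above both early means. Of the 20 that were tested, 45.0% had a rule value above 0, against 34.7% of all tested contigs. A single cluster held 2 members, and both belong to the 32 with unequal day 0 libraries. These members share a cluster and so may share fragments, and they are not independent of each other.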

How the data were processed

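The authors deposited expression as FPKM in a single table, with a column for each of the 12 libraries and column names equal to the sample titles. Row names have the form that the Trinity assembler gives. The sources used here name no abundance program, assembly setting, filter or annotation. Libraries were prepared with a TruSeq kit, per the labels' protocols.

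The members and all comparisons were chosen with earlier results of these data known. Values were analysed as log2(FPKM + 1), which understates changes of low contigs. Contigs whose mean over all libraries reached 1 FPKM entered the tests, 17653 in number, and 13161 were left out. Contrasts between late days and a moderated F test were fitted with limma 3.58.1 in R 4.3.3 as group means over all 12 libraries with an intensity trend (6 residual degrees of freedom), with Benjamini-Hochberg adjustment over all tested contigs and a threshold of 0.05. The 12-library fit was checked on simulated data for day 6 against day 3. An exact two-sided permutation test of 2 libraries against 2 cannot go below 0.333 and was not used. At most 4 IDs are named: the largest rule values, and the largest called rises on day 12 against day 3 with no overlap between libraries. Members at ranks 3, 8, 37, 63, 136 and 182 were singled out after their values were seen. Alternatives were another pseudocount (0.1), other low-value filters (none, or a mean of at least 5), median-ratio rescaling, fits of fewer libraries, the replicate number as a block, and leaving out each library. Depth in reads is unknown, so no counting interval is given. Tables and figures were made with Python 3.11.15.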

Additional observations from a re-analysis of the deposited data

How the results depend on the processing

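The list itself depended most on the pseudocount: with 0.1 FPKM the rule chose 118 of the 200 members again. Rescaled libraries gave 190, leaving out 1 library gave 168 to 196, and keeping a single library per group gave 158 or 167. Leaving out 1 library moved the members called higher and lower to 39 to 51 and 29 to 44 on day 6 against day 3, to 10 to 27 and 0 to 6 on day 12 against day 6, and to 34 to 60 and 25 to 42 on day 12 against day 3. The F test then called 75 to 97. Where a group kept 1 library, it was assumed to vary like the other groups. On day 12 against day 6, the fit of the 8 late libraries called 11 higher and 1 lower, and that of the day 6 and day 12 libraries called 1 lower. With the replicate block the lower count on that contrast was 2 instead of 5, and no other count moved by over 1.5 times. Library differences correlated between groups at -0.19 to 0.41, over 0.1 in 3 of 15 pairs of groups. Whether libraries of the same number share a culture or batch was not tested. All other counts of calls stayed within 1.5 times under the pseudocount, filter and rescaling alternatives, and both named rises kept their direction and call in all 18 alternatives each. The cause of the shifts was not tested. Depth in reads is unknown, and how far low late levels limit the calls was not tested.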
